A study of Mus musculus with 6 samples.

Results

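The proteasome genes of the newborn (P0) mouse lens were defined by symbol. They were every gene whose symbol begins with Psma, Psmb, Psmc, Psmd, Psme, Psmf or Psmg and a number, together with Pomp and Nfe2l1, while Psmc3ip and Psme3ip1 were left out because they are not proteasome parts. The rule took 46 of the 13931 genes measured and used no measured value. RNA was sequenced from whole lenses of 3 control and 3 Celf1cKO samples, each a pool of lenses. In Celf1cKO mice a germline knockout allele (Celf1lacZKI) was combined with a floxed Celf1 allele and the Pax6GFPCre transgene, which expresses Cre recombinase in the developing lens from embryonic stages, so that exon 5 of the floxed allele is lost in the lens. The labels give the controls as Celf1lacZKI/+, which carry the same germline allele and 1 functional copy, whereas the methods of the study name floxed mice without Cre as the usual controls, so the control genotype was not settled. The mice were on a mixed C57BL/6 and FVB background.

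The proteasome is the main protease of the cytoplasm and nucleus, and it degrades proteins marked with ubiquitin. Its 20S core is a barrel in which outer rings of alpha subunits gate the entry and inner rings of beta subunits carry the active sites. The 19S cap binds ubiquitin chains, removes them, and unfolds the protein with a ring of ATPases. Other caps (PA28, PA200) can take the place of the 19S cap, and dedicated chaperones assemble the particle and leave it afterwards. In the lens, fiber cells degrade their nuclei and organelles as they mature and then keep their proteins for life, and ubiquitin-dependent proteolysis operates in both the epithelium and the young fibers. Celf1 is an RNA-binding protein that controls the stability, splicing and translation of its target mRNAs.

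The libraries held between 40694454 and 44387151 counted reads. Levels are given as log2 CPM (CPM being read counts scaled to a common library size, after the scaling between libraries made by the authors), on which a difference of 1 is a doubling. Celf1 itself, the deleted gene, measured 9.95, 9.94 and 9.34 in control and 8.93, 7.66 and 7.83 in Celf1cKO libraries, a difference of -1.60 (SE 0.33, adjusted p = 0.0269, limma with Benjamini-Hochberg adjustment). The groups did not overlap, and Celf1cKO library 1 retained the most Celf1. Since exon 5 alone is removed, the gene total is only a partial check. Of the lens epithelium markers, 8 of 8 were measured and 2 were reduced at an adjusted p under 0.05, beside 4.03% of all genes. At an unadjusted p under 0.05, 5 were reduced, beside 13.7%. Their median log2 fold-change was -1.22, and 1 of the 8, the most abundant marker Cdh2, was not lower (0.02). The summed level of the 8 was 1112, 1151 and 1039 CPM in control libraries against 1020, 590 and 797 in Celf1cKO libraries. Of the fiber markers, 9 of 10 were measured, and 3 were reduced at an adjusted and 4 at an unadjusted p under 0.05. Their median log2 fold-change was -0.37. They summed to 148720 to 176490 CPM in control and 116630 to 127160 in Celf1cKO libraries. The 5 endothelial markers summed to 61.8 to 82.5 CPM in control libraries and to 81.3, 7.86 and 31.9 in Celf1cKO libraries 1, 2 and 3. The 3 mesenchyme markers measured summed to 12.7, 10.8 and 13.0 CPM in control and to 9.13, 2.43 and 6.27 in Celf1cKO libraries, lower in every Celf1cKO library, and none passed, while with the replicate block Pdgfrb was reduced (adjusted p = 0.0462). Markers of leukocytes (3.44 to 8.87 CPM in all), erythroid cells (at most 1.35) and retina (2.50 to 28.1) stayed low, and none of the 5 cornea or skin keratin and Trp63 markers was in the table. Fewer cells of a type and less RNA per cell cannot be told apart in whole lenses, and the part of these markers in the proteasome values was not tested.

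Proteasome transcripts were mostly higher in Celf1cKO lenses. The log2 fold-change was positive for 42 of the 46 genes, with a median of 0.30 beside -0.04 over all genes and 0.01 over the 10529 genes with an average above 1 log2 CPM. At an adjusted p under 0.05 (limma on the deposited log2 CPM values, Benjamini-Hochberg over all genes), 15 of the 46 were elevated, beside 7.85% of all genes. None was reduced, beside 4.03% of all genes. At an unadjusted p under 0.05 the counts were 27 elevated, beside 16.3% of all genes, and 1 reduced (Psmg1), beside 13.7%. Limma voom on the reads worked back from the values also gave 15 and 0. With the study's further cut-offs, a log2 fold-change above 0.58 and an average above 1 log2 CPM, 7 were called elevated (Psma5, Nfe2l1, Psma2, Psmb3, Psmd14, Psmc6 and Psmc3), beside 4.69% of all genes, and none was called reduced, beside 2.56%. In 33 of the 46 every Celf1cKO library was above every control library, beside 19.5% of all genes, and 1 (Psmg1) was below in every Celf1cKO library, beside 17%. Of the 46, 45 had an average above 1 log2 CPM, the exception being Psmg3.

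The count of calls rested on single libraries far more than the size of the differences did. Without control library 2, or without Celf1cKO library 3, none of the 46 passed an adjusted p of 0.05 in limma. The loss was general, since in each of these fits 1 gene was called elevated and 0 reduced over all genes. At an unadjusted p under 0.05, 29 and 20 of the 46 were elevated, beside 14.6% and 11.9% of all genes in the same fits. The median log2 fold-change of the 46 was 0.34 and 0.30. Without Celf1cKO library 1, which retained the most Celf1, 22 were elevated at an adjusted p under 0.05, 9 were called elevated, and Psmg1 was called reduced. Over all genes the calls rose as well, to 1025 elevated and 853 reduced, from 654 and 356 with all libraries. Both groups carry the same replicate numbers, and the labels do not say what a number stands for. With the number as a block, 18 of the 46 were elevated at an adjusted p under 0.05 (Psma6, Psmb1 and Psmd10 being the additions) and 8 were called. Over all 13931 genes the block gave 1311 and 745.

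**Figure D1:**
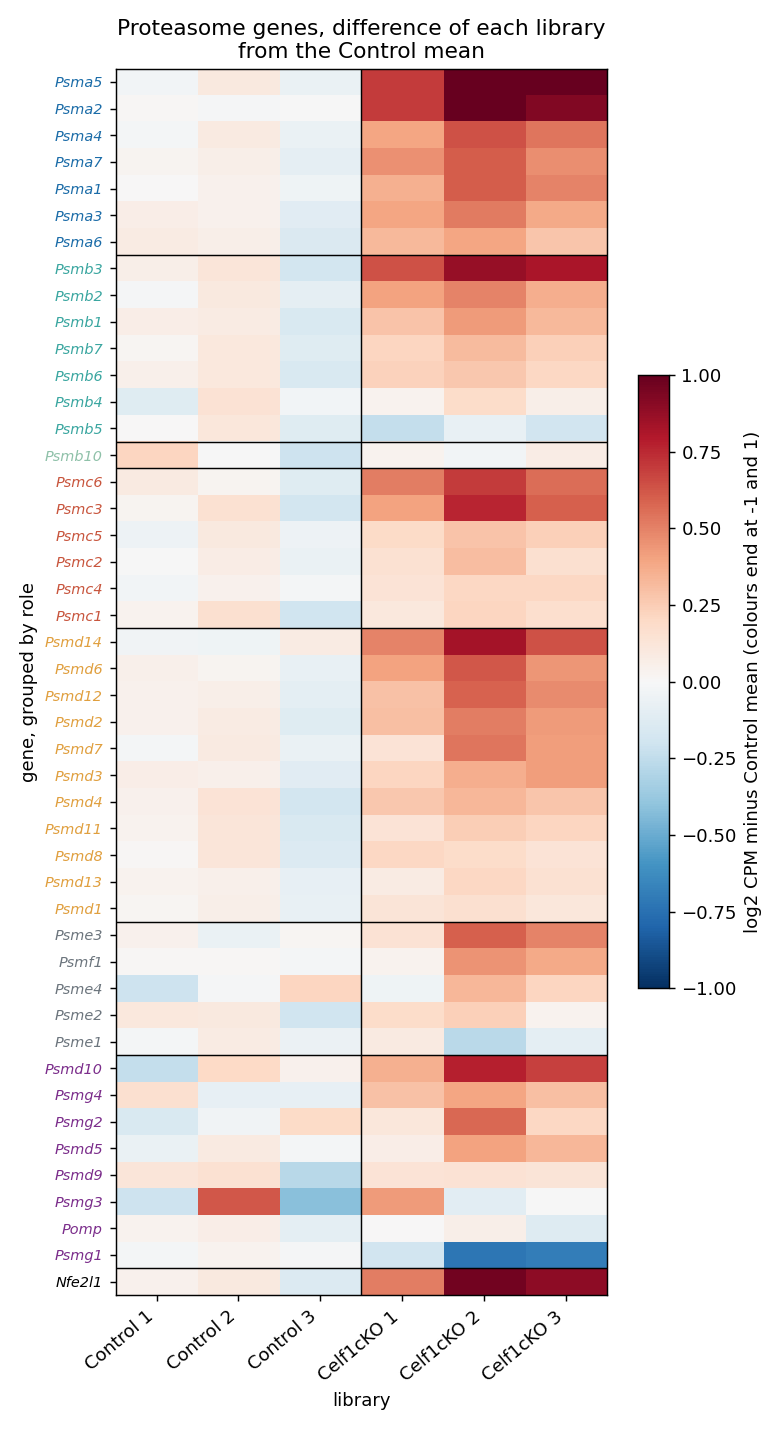
Heatmap of the difference in log2 CPM of each library (columns) from the control mean for the 46 proteasome genes (rows, grouped by role and ordered by log2 fold-change), with red above and blue below the control mean and colours ending at -1 and 1. The 20S alpha rows are red in all Celf1cKO libraries, whereas the rows of Psmb5, Pomp and Psmg1 are not.

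Nfe2l1 encodes NRF1, a transcription factor that is normally destroyed by the proteasome itself and that switches on proteasome subunit genes when proteasome activity is short. The gene (GRCm38 chr11:96817414-96829968, minus strand) measured 7.71, 7.76 and 7.53 in control and 8.18, 8.63 and 8.56 in Celf1cKO libraries. Every Celf1cKO library was above every control library, and Celf1cKO library 1 was the lowest of the 3. The log2 fold-change was 0.79 (SE 0.13, 1.73-fold), with an adjusted p of 0.0162 in limma. Of 16 genes that process NRF1 or pair with it, 5 were elevated and none reduced at an unadjusted p under 0.05, beside 16.3% and 13.7% of all genes. The median log2 fold-change of the 16 was 0.13, and 9 were positive. The groups overlapped in 10 of the 16, beside 8842 of all 13931 genes. At an adjusted p under 0.05, none of the 16 was reduced, beside 4.03% of all genes. The elevated genes numbered 2 (12.5%), both also called, beside 7.85% of all genes.

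They were Nploc4, an adaptor of the p97 ATPase that extracts NRF1 from the endoplasmic reticulum, which measured 6.23, 6.15 and 6.03 in control and 6.53, 6.86 and 6.81 in Celf1cKO libraries (log2 fold-change 0.59, adjusted p = 0.0196, limma), and Mafg, a small MAF protein with which NRF1 binds DNA, which measured 7.40, 7.53 and 7.78 in control and 7.88, 8.37 and 8.20 in Celf1cKO libraries (log2 fold-change 0.58, adjusted p = 0.0487). Both were apart between the groups. The other small MAF genes of the list, Mafk and Maff, overlapped (log2 fold-changes -0.26 and -0.23, adjusted p = 0.352 and 0.714, limma). The p97 ATPase gene Vcp (0.35, adjusted p = 0.0617) and its other adaptor Ufd1 (0.31, adjusted p = 0.0507) did not pass. The related factor Nfe2l2 (NRF2) measured 3.37, 4.08 and 4.04 in control and 3.39, 4.52 and 4.13 in Celf1cKO libraries, which overlapped (log2 fold-change 0.18, adjusted p = 0.734).

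Of 8 other genes known as targets of NRF1 or NRF2, 1 (12.5%) was elevated at an adjusted p under 0.05, beside 7.85% of all genes. It was the thioredoxin reductase gene Txnrd1, at 5.32, 5.19 and 5.60 in control and 5.76, 6.53 and 6.24 in Celf1cKO libraries (log2 fold-change 0.81, adjusted p = 0.0445, limma). The cystine transporter gene Slc7a11 had the largest difference of the 8, at 5.50, 5.32 and 5.29 in control and 4.94, 3.41 and 4.71 in Celf1cKO libraries (log2 fold-change -1.02, adjusted p = 0.110), and its values were below the control values in every Celf1cKO library without passing the test. With the replicate block the heme oxygenase gene Hmox1 passed as well, at 9.03, 9.03 and 8.86 in control and 9.49, 9.26 and 9.27 in Celf1cKO libraries (log2 fold-change 0.37, adjusted p = 0.0491, and 0.0560 without the block). The median of the 8 was 0.22.

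NRF1 with a small MAF protein binds the antioxidant response element, whose core is TGACNNNGC. This core was searched on both strands of the RefSeq promoters of GRCm38.p6, which span 250 bases before and 50 bases after each start site. A promoter was found for 39 of the 46 genes. The core occurred in 6 of the 39 (15.4%), in 2 of the 13 that were elevated at an adjusted p under 0.05 (15.4%) and in 4 of the other 26 (15.4%). This compares with 14% of all genes with a promoter and 16.7% of the 10827 measured genes with a promoter. Counted by promoter, it occurred in 6 of the 46 promoters of the 39 genes (13%), beside 12.4% of all promoters. The 6 genes were Psmc6 and Psmd12, which were elevated, and Psmb5, Psmb6, Psmd9 and Psme4, which were not. A match is a run of letters in this window and not a site in use. Windows from these promoters are shown 5′ to 3′ on the strand of the gene, with the core in capitals (GCNNNGTCA where it lies on the other strand), first for both elevated genes and then for the catalytic subunit genes Psmb5 and Psmb6.
Psmc6 (chr14:45329574-45329633, plus strand): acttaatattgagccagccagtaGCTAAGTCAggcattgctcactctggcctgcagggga
Psmd12 (chr11:107479278-107479337, plus strand): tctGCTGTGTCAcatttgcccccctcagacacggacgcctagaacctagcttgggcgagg
Psmb5 (chr14:54618009-54618068, minus strand): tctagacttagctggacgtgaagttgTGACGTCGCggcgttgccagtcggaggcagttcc
Psmb6 (chr11:70525297-70525356, plus strand): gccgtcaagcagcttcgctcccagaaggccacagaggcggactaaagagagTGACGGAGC

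The core began 227 bases before the start site in Psmc6 and 247 bases before it in Psmd12, and nearer to it in Psmb5 (47 bases) and Psmb6 (9 bases). Psma5 and Psma2, the 20S genes with the largest log2 fold-changes, held no core in the 300 bases, and the 100 bases before their start sites are shown for comparison.
Psma5 (chr3:108256826-108256925, plus strand): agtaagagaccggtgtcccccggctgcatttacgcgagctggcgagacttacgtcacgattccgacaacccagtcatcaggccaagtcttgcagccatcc
Psma2 (chr13:14613142-14613241, plus strand): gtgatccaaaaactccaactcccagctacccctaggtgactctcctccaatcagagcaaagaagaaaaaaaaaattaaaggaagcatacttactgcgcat

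The 7 alpha subunits, which form the outer rings and the gate of the 20S core, were all higher in every Celf1cKO library. Their log2 fold-changes ran from 0.33 to 1.0 with a median of 0.51, and 6 of 7 were elevated at an adjusted p under 0.05 (all 7 with the replicate block). Of all genes, 7.85% were so elevated without the block, and 19.5% were higher in every Celf1cKO library than in every control library. Psma5 (alpha5, chr3:108256926-108279974, plus strand) measured 6.17, 6.29 and 6.13 in control and 6.89, 7.45 and 7.26 in Celf1cKO libraries. All Celf1cKO values were above all control values, with Celf1cKO library 1 the lowest of its group. Its log2 fold-change of 1.0 (SE 0.14, 2.0-fold, adjusted p = 0.0112, limma) was the largest of the 46, and 3.12% of all genes had a larger log2 fold-change. The Psma5 exons share 60 bases with the antisense gene 1700010K24Rik.

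Psma2 (alpha2, chr13:14613240-14674236, plus strand) measured 6.11, 6.09 and 6.10 in control and 6.80, 7.10 and 7.02 in Celf1cKO libraries. The control libraries lay within 0.03 of each other, and the log2 fold-change was 0.87 (SE 0.10, 1.83-fold, adjusted p = 0.00888, limma). Psma4, Psma7, Psma1 and Psma3 followed with log2 fold-changes of 0.52, 0.51, 0.49 and 0.43 and adjusted p-values from 0.0162 to 0.0245 in limma, and they stayed under the fold-change cut-off of 0.58. Psma6 had the smallest difference and measured 6.62, 6.59 and 6.39 in control and 6.85, 6.93 and 6.81 in Celf1cKO libraries (log2 fold-change 0.33, adjusted p = 0.0565, and 0.0471 with the replicate block, limma). By the differences within same-numbered pairs, Psma5 was higher by 0.73, 1.16 and 1.13 and Psma6 by 0.24, 0.34 and 0.42. Psma8, the alpha subunit of the testis, was not among the genes analysed here.

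The 7 constitutive beta subunits, 3 of which carry the active sites, were more uneven. Their median log2 fold-change was 0.26, from -0.17 to 0.77. At an adjusted p under 0.05, 2 of 7 (Psmb3 and Psmb2) were elevated, beside 7.85% of all genes. Psmb3 (beta3, a structural subunit, chr11:97703399-97713500, plus strand) measured 6.32, 6.38 and 6.08 in control and 6.90, 7.13 and 7.08 in Celf1cKO libraries and was called elevated, with a log2 fold-change of 0.77 (SE 0.11, 1.71-fold, adjusted p = 0.0112, limma). The difference was 0.42 for Psmb2 (adjusted p = 0.0241) and 0.35 for Psmb1 (adjusted p = 0.0544, and 0.0488 with the replicate block).

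None of the 3 genes for the constitutive active sites passed an adjusted p of 0.05 in limma, with or without the replicate block. Psmb5 (beta5, the chymotrypsin-like site, chr14:54614119-54618022, minus strand) measured 6.55, 6.66 and 6.43 in control and 6.30, 6.47 and 6.35 in Celf1cKO libraries. Its values overlapped between the groups, and it was the constitutive subunit gene with a negative log2 fold-change, -0.17 (95% interval -0.39 to 0.05, adjusted p = 0.258). The differences within same-numbered pairs were -0.24, -0.19 and -0.08. Total-count scaling moves the median of the genes above 1 log2 CPM from 0.01 to 0.23. Under it the log2 fold-change of Psmb5 was 0.06, so that its direction depends on the scaling. Its log2 fold-change was the lowest of the 31 constitutive core and cap subunits taken by the symbol rule. This held under each of the 10 other settings and in each fit that left out a library. The difference from the other subunits was not tested.

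Psmb6 (beta1, the caspase-like site) measured 7.74, 7.79 and 7.53 in control and 7.92, 7.95 and 7.90 in Celf1cKO libraries, and Psmb7 (beta2, the trypsin-like site) measured 7.09, 7.18 and 6.95 in control and 7.29, 7.39 and 7.31 in Celf1cKO libraries. In both the Celf1cKO libraries were above all control libraries, by 0.23 (95% interval 0.02 to 0.45, adjusted p = 0.133) and 0.26 (95% interval 0.05 to 0.46, adjusted p = 0.0989, limma). Psmb4 had the next smallest difference after Psmb5 and measured 7.51, 7.77 and 7.60 in control and 7.67, 7.81 and 7.69 in Celf1cKO libraries (log2 fold-change 0.09, adjusted p = 0.542). The Psmb5 exons share 109 bases with the microRNA gene Mir686 on the same strand, and 405 bases of the Psmb7 exons overlap Nek6 on the other strand.

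The inducible active-site subunits replace the constitutive ones in the immunoproteasome after interferon exposure. Psmb10 was the member of this kind in the table, and it was scarce, at 2.29, 2.07 and 1.87 in control and 2.11, 2.04 and 2.15 in Celf1cKO libraries, or 142 to 216 reads. The groups overlapped, with a log2 fold-change of 0.03 (95% interval -0.41 to 0.46, adjusted p = 0.943, limma). Psmb8, Psmb9 and the thymus subunit Psmb11 were not among the genes analysed here. Of 14 genes of the interferon response and antigen presentation, 7 had an average above 1 log2 CPM. At an adjusted p under 0.05 in limma, 1 of the 14 was elevated and none was reduced, beside 7.85% and 4.03% of all genes. At an unadjusted p under 0.05 the counts were 2 and 3, beside 16.3% and 13.7%. The median log2 fold-change was -0.43. The elevated gene was B2m, the light chain of MHC class I, at 3.14, 2.52 and 2.89 in control and 4.27, 3.56 and 3.71 in Celf1cKO libraries (log2 fold-change 0.99, adjusted p = 0.0387). The interferon-induced GTPase gene Gbp2 was lower in every Celf1cKO library, at -1.58, -2.26 and -1.51 in control and -2.84, -3.50 and -2.57 in Celf1cKO libraries, without passing (log2 fold-change -1.19, adjusted p = 0.136). Gbp2 was scarcer than Psmb10, with an average of -2.38 log2 CPM, so its difference rests on few reads.

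**Figure D2:**
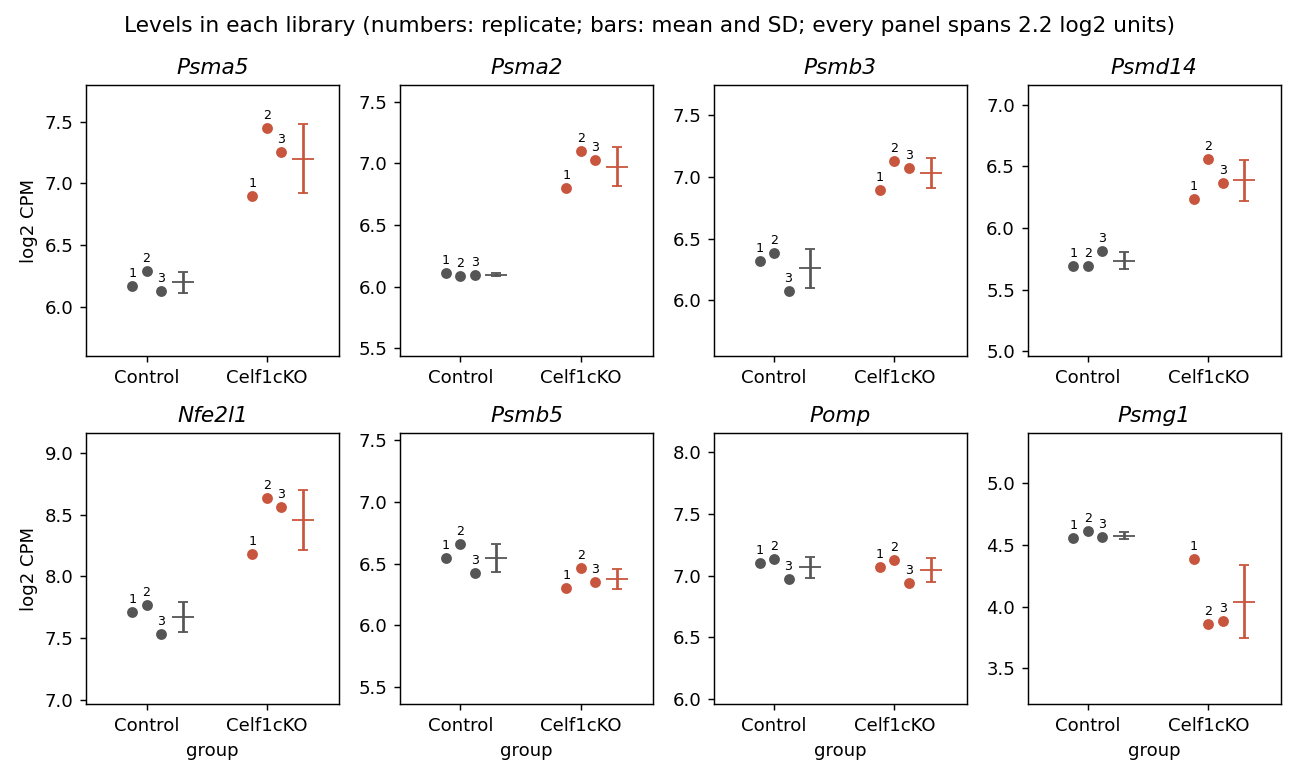
Levels of 8 proteasome genes in log2 CPM in each of the 3 control (grey) and 3 Celf1cKO (red) libraries, with the replicate number above each point and the mean and SD beside the points, and every panel spanning the same range. Psma5, Psma2, Psmb3, Psmd14 and Nfe2l1 are higher in all Celf1cKO libraries, Psmb5 and Pomp overlap, and Psmg1 is lower in all.

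Levels of different genes were compared per kilobase of the median annotated coding mRNA. On this scale the 14 constitutive 20S subunit genes lay closer together in Celf1cKO lenses. The highest level was 11.3, 11.9 and 9.88 times the lowest in the control libraries and 7.92, 6.60 and 6.68 times in the Celf1cKO libraries, and the SD of their log2 levels was 0.84, 0.88 and 0.82 against 0.72, 0.67 and 0.68. With the length of all annotated exons instead, the SD was 0.92 to 0.96 in control and 0.80 to 0.82 in Celf1cKO libraries. Among the 7 alpha subunits alone this held by mRNA length, with an SD of 0.60 to 0.66 in control and 0.52 to 0.55 in Celf1cKO libraries, but not by all exons, with an SD of 0.75 to 0.80 and 0.78 to 0.84. Psmb6 was highest in both groups, at 259 ± 24.1 CPM per kilobase in control and 304 ± 6.21 in Celf1cKO lenses (mean ± SD, n = 3). Psma2 was lowest in both, at 23.5 ± 0.224 CPM per kilobase in control and 43.3 ± 4.59 in Celf1cKO lenses, and had the second largest rise of the 46. By the length of all exons Psma2 was lowest in control lenses alone, and Psma1 was lowest in Celf1cKO lenses, at 27.6 against 34.3 CPM per kilobase of Psma2.

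Psma5 stood at 59.2 ± 3.53 CPM per kilobase in control and 120 ± 22.6 in Celf1cKO lenses. Psmb3 moved from the 11th to the 5th highest of the 46, at 100 ± 10.8 CPM per kilobase in control and 172 ± 14.1 in Celf1cKO lenses. Psmb5 moved from the 6th to the 13th, at 123 ± 9.86 CPM per kilobase in control and 109 ± 6.41 in Celf1cKO lenses. The 17 subunit genes of the 19S cap were those taken by the symbol rule. Their SD was 0.75 to 0.79 in control and 0.71 to 0.74 in Celf1cKO libraries by mRNA length. By exon length it was 1.02 to 1.05 in control and 1.02 in every Celf1cKO library. An equal number of protein copies of each 20S subunit is needed per particle, but transcript levels per length are not protein levels, and a true mRNA length in the lens was not measured.

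**Figure D3:**
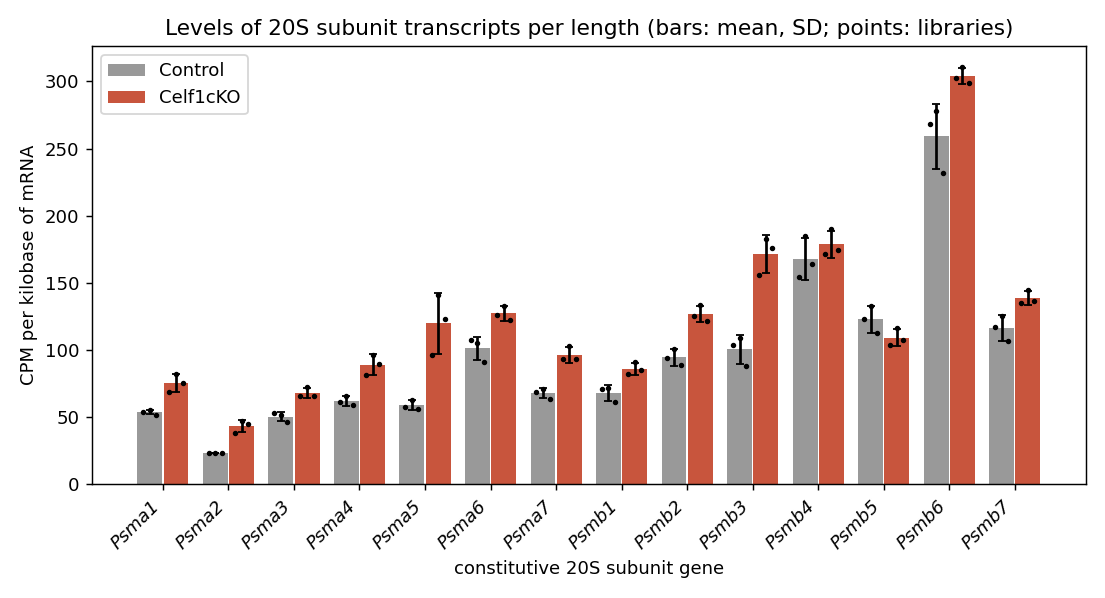
Levels of the 14 constitutive 20S subunit genes in CPM per kilobase of mRNA, as the mean (bars) and SD (error bars) of 3 control (grey) and 3 Celf1cKO (red) libraries, with points for the libraries. Psmb6 is the highest and Psma2 the lowest in both groups, and Psmb5 is the gene whose Celf1cKO bar is below its control bar.

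The 6 ATPases form the ring of the 19S cap that unfolds substrates and opens the 20S gate. In 5 of 6 every Celf1cKO library was above every control library, beside 19.5% of all genes. The median log2 fold-change was 0.22, from 0.16 to 0.59. At an adjusted p under 0.05, 2 were elevated, both called, beside 7.85% of all genes. Psmc6 (Rpt4, chr14:45329788-45349705, plus strand) measured 6.61, 6.54 and 6.40 in control and 7.04, 7.22 and 7.08 in Celf1cKO libraries. Its log2 fold-change was 0.59 (SE 0.09, 1.51-fold, adjusted p = 0.0137, limma). Psmc3 (Rpt5, chr2:91054009-91066369, plus strand) was more abundant and measured 7.66, 7.78 and 7.44 in control and 8.03, 8.39 and 8.22 in Celf1cKO libraries, with a log2 fold-change of 0.59 (SE 0.12, 1.5-fold, adjusted p = 0.0285). Both were close to the cut-off of 0.58, and 215 bases of the Psmc3 exons overlap Slc39a13 on the other strand. The other 4 had log2 fold-changes from 0.16 to 0.24 and adjusted p-values from 0.0957 to 0.347. Psmc1 (Rpt2), which had the smallest, measured 7.69, 7.82 and 7.45 in control and 7.76, 7.87 and 7.82 in Celf1cKO libraries, with overlap between the groups.

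The 11 non-ATPase subunits of the 19S cap that the symbol rule took include scaffolds, ubiquitin receptors and a deubiquitinase. The cap subunits Adrm1 (Rpn13) and Sem1 have other symbols and are listed with the proteasome-bound factors. In all 11 every Celf1cKO library was above every control library, beside 19.5% of all genes. The differences were small, with a median log2 fold-change of 0.33, from 0.14 to 0.65. At an adjusted p under 0.05, 4 were elevated (Psmd14, Psmd6, Psmd12 and Psmd2), beside 7.85% of all genes. Of these 4, Psmd14 was called. Psmd14 (Rpn11, the deubiquitinase that removes ubiquitin chains from substrates, chr2:61711694-61800376, plus strand) measured 5.70, 5.69 and 5.81 in control and 6.23, 6.56 and 6.37 in Celf1cKO libraries. Its log2 fold-change was 0.65 (SE 0.11, 1.57-fold, adjusted p = 0.0146, limma). Psmd6 (Rpn7), Psmd12 (Rpn5) and Psmd2 (Rpn1, a scaffold that docks shuttle factors) had log2 fold-changes of 0.49, 0.45 and 0.41 with adjusted p-values of 0.0193, 0.0330 and 0.0340.

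Psmd4 (Rpn10, a ubiquitin receptor) measured 7.11, 7.20 and 6.88 in control and 7.34, 7.39 and 7.34 in Celf1cKO libraries and did not pass (log2 fold-change 0.29, adjusted p = 0.0933, limma). Psmd11 (Rpn6, a clamp between cap and core) measured 6.18, 6.26 and 5.99 in control and 6.28, 6.39 and 6.36 in Celf1cKO libraries (log2 fold-change 0.20, adjusted p = 0.206). Psmd1 (Rpn2, a scaffold) had the smallest difference, at 7.72, 7.76 and 7.64 in control and 7.84, 7.87 and 7.82 in Celf1cKO libraries (log2 fold-change 0.14, 95% interval -0.04 to 0.31, adjusted p = 0.258). All 3 were apart between the groups by a narrow margin. Over the 31 constitutive subunits of core and cap taken by the symbol rule, 30 had a positive log2 fold-change. Of the 31, 28 were apart and higher and 14 were elevated at an adjusted p under 0.05, beside 19.5% and 7.85% of all genes.

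**Figure D4:**
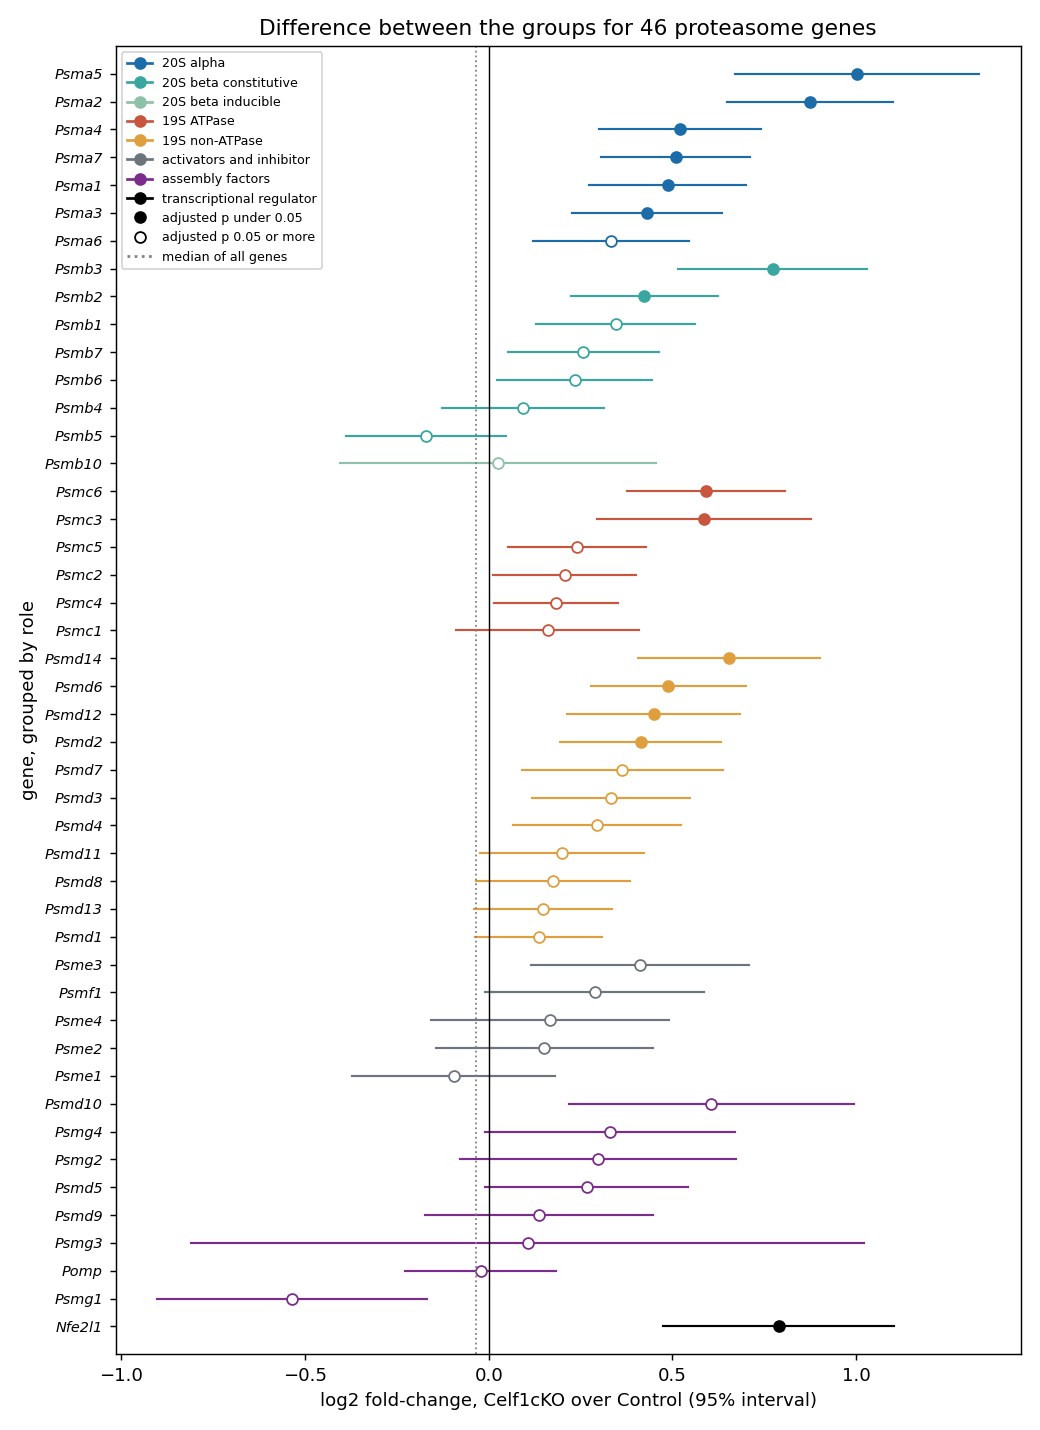
Log2 fold-change of Celf1cKO over control (points) with its 95% interval (lines) for the 46 proteasome genes, coloured by role, with filled points at an adjusted p under 0.05 and a dotted line at the median of all genes. All 7 alpha subunits lie between 0.33 and 1.0, while Psmb5, Psme1, Pomp and Psmg1 lie below 0.

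Of the alternative caps and the inhibitor, none of the 5 genes passed an adjusted p of 0.05 in limma. At an unadjusted p under 0.05, 1 (Psme3) was elevated, beside 16.3% of all genes. The median log2 fold-change of the 5 was 0.17. Psme3 (PA28 gamma, the nuclear activator) measured 5.96, 5.85 and 5.94 in control and 6.06, 6.52 and 6.41 in Celf1cKO libraries. All Celf1cKO values were above the control values, by little in library 1 (log2 fold-change 0.41, adjusted p = 0.0780). The PA28 alpha and beta genes, which interferon induces and which lie close together on chromosome 14, overlapped between the groups: Psme1 measured 4.83, 4.93 and 4.79 in control and 4.94, 4.58 and 4.75 in Celf1cKO libraries and Psme2 measured 4.44, 4.43 and 4.13 in control and 4.51, 4.57 and 4.37 in Celf1cKO libraries.

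Their log2 fold-changes were -0.10 (95% interval -0.37 to 0.18) and 0.15 (95% interval -0.14 to 0.45), and under total-count scaling that of Psme1 was positive. Psme4 (PA200) measured 7.99, 8.18 and 8.41 in control and 8.15, 8.52 and 8.41 in Celf1cKO libraries, and the control libraries spanned a wider range than the Celf1cKO libraries (log2 fold-change 0.17, adjusted p = 0.454, limma). Psmf1 (PI31, a 20S-binding protein first known as an inhibitor) measured 4.71, 4.71 and 4.68 in control and 4.74, 5.16 and 5.08 in Celf1cKO libraries. Its values were higher in Celf1cKO libraries 2 and 3 and near the control values in library 1 (log2 fold-change 0.29, adjusted p = 0.179).

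Among the 8 assembly factors the log2 fold-changes had both signs. None passed an adjusted p of 0.05 in limma. At an unadjusted p under 0.05, 1 was elevated and 1 reduced, beside 16.3% and 13.7% of all genes. Their log2 fold-changes ran from -0.54 to 0.61 with a median of 0.20. Between the groups 5 of 8 overlapped, beside 8842 of all 13931 genes. Psmg1 (PAC1), which with Psmg2 (PAC2) forms the chaperone of the alpha ring, measured 4.55, 4.61 and 4.57 in control and 4.38, 3.86 and 3.88 in Celf1cKO libraries. The control values lay within 0.06 of each other, Celf1cKO library 1 was slightly below them, and libraries 2 and 3 were well below. The log2 fold-change was -0.54 (95% interval -0.90 to -0.17, adjusted p = 0.0683), and without Celf1cKO library 1 it was -0.71 (adjusted p = 0.00704). Psmg1 passed in 1 of the 6 fits that left out a library, with an adjusted p up to 0.223 in limma, and in 0 of the 10 other settings. Its partner Psmg2 measured 3.79, 3.90 and 4.13 in control and 4.05, 4.51 and 4.15 in Celf1cKO libraries, with overlap and a log2 fold-change of 0.30 (95% interval -0.08 to 0.67, adjusted p = 0.256). The difference between both partners was not tested.

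Psmg4 (PAC4) measured 2.91, 2.67 and 2.67 in control and 3.04, 3.14 and 3.05 in Celf1cKO libraries, which did not overlap (log2 fold-change 0.33, adjusted p = 0.178, limma). Its partner Psmg3 (PAC3) was near the limit of detection, with 14 to 29 reads per library and a log2 fold-change of 0.11 (95% interval -0.81 to 1.02). Pomp, the chaperone of the beta ring and a companion of beta5 in assembly, measured 7.10, 7.13 and 6.97 in control and 7.07, 7.13 and 6.94 in Celf1cKO libraries. The groups overlapped almost entirely, and the log2 fold-change was -0.02 (95% interval -0.23 to 0.18, adjusted p = 0.894), while under total-count scaling it was 0.20.

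Of the chaperones of the 19S base, Psmd10 (gankyrin, on the X chromosome) had the largest difference and measured 3.54, 3.98 and 3.82 in control and 4.13, 4.56 and 4.46 in Celf1cKO libraries. It was apart between the groups, and its log2 fold-change of 0.61 (SE 0.17) had an adjusted p of 0.0567, and of 0.0227 with the replicate block, in limma. Within same-numbered pairs it was higher by 0.59, 0.58 and 0.65. Psmd5 (S5b) measured 4.63, 4.79 and 4.69 in control and 4.77, 5.10 and 5.03 in Celf1cKO libraries (log2 fold-change 0.27, adjusted p = 0.181), and Psmd9 measured 4.93, 4.96 and 4.53 in control and 4.94, 4.95 and 4.94 in Celf1cKO libraries (log2 fold-change 0.14, adjusted p = 0.522). Both overlapped, and 25.5% of the Psmd9 exon bases overlap Gm26745 on the other strand.

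By library, Celf1cKO 1 had the smallest difference in most groups of subunits. The median difference of the alpha subunits from the control mean was 0.39, 0.61 and 0.49 in Celf1cKO libraries 1, 2 and 3 and -0.07 to 0.06 in the control libraries. For the non-ATPase subunits it was 0.22, 0.36 and 0.42, for the ATPases 0.17, 0.30 and 0.22, and for the constitutive beta subunits 0.23, 0.32 and 0.24. Control library 3 was the lowest control in these 4 groups, at -0.07 to -0.12. Over all genes the medians stayed between -0.03 and 0.02 in the 6 libraries.

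**Figure D5:**
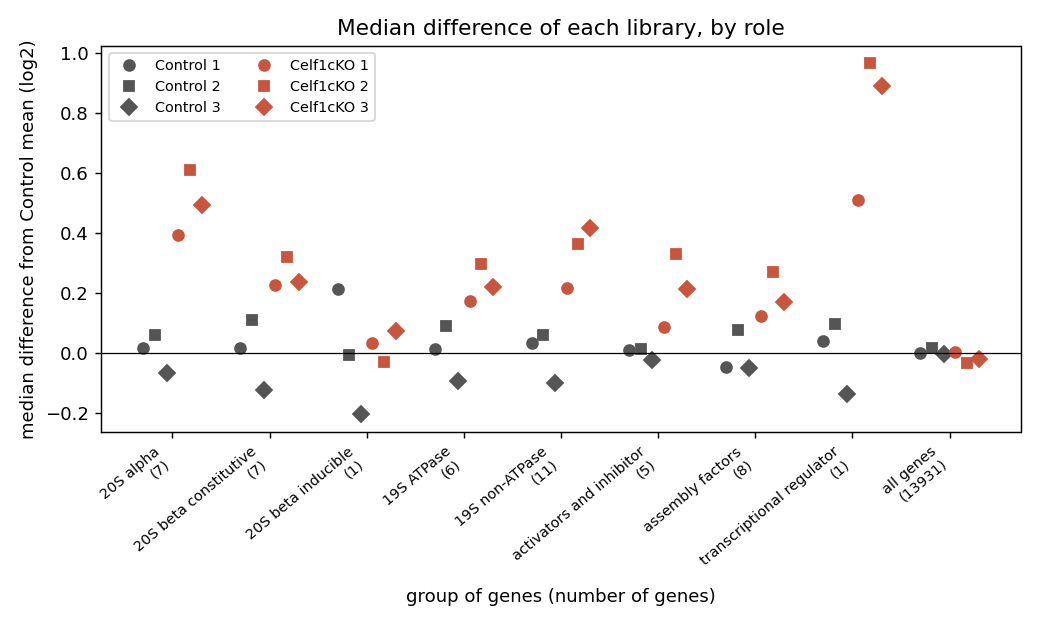
Median difference in log2 CPM from the control mean (vertical axis) of each library for each role and for all genes (horizontal axis, with the number of genes), in grey for control and red for Celf1cKO, with a symbol for each replicate number. The alpha subunits reach 0.39 to 0.61 in Celf1cKO libraries, whereas all genes stay near 0.

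As a share of all counted reads, the 46 genes took 0.438%, 0.435% and 0.424% in the control and 0.581%, 0.689% and 0.658% in the Celf1cKO libraries, a ratio of 1.49. Crystallin transcripts fill much of a lens library, taking 45.8% to 46.9% of the reads in control and 34.7% to 38.5% in Celf1cKO libraries. Relative to the reads outside 16 crystallin genes, the shares were 0.789% to 0.820% and 0.944% to 1.06%, a ratio of 1.25. The exact two-sided permutation test gave p = 0.1 for both, the smallest value that 3 libraries against 3 allow. Outside crystallin reads, the ratio was 1.5 for the alpha subunits, 1.23 for the ATPases, 1.23 for the non-ATPase subunits, 1.18 for the constitutive beta subunits, 1.13 for the activators with the inhibitor, 1.03 for the assembly factors and 1.72 for Nfe2l1.

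Of 17 genes for proteins that belong to or bind the proteasome or carry substrates to it, 16 were measured. At an adjusted p under 0.05, 4 of these were elevated (25%, beside 7.85% of all genes) and none was reduced, beside 4.03%. The median log2 fold-change was 0.15, from -0.23 to 0.85, with 14 of the 16 positive. The groups overlapped in 8 of the 16, beside 8842 of all 13931 genes. Usp14, the deubiquitinase bound to Psmd2, measured 4.98, 4.88 and 4.81 in control and 5.51, 5.99 and 5.72 in Celf1cKO libraries and was called elevated (log2 fold-change 0.85, SE 0.13, adjusted p = 0.0141, limma). Txnl1, a thioredoxin bound to the cap near Psmd14, measured 6.06, 5.98 and 5.94 in control and 6.59, 6.93 and 6.62 in Celf1cKO libraries and was also called (log2 fold-change 0.72, SE 0.11, adjusted p = 0.0133). The ubiquitin receptor gene Adrm1 (Rpn13) and the shuttle gene Ubqln2 were elevated by 0.44 and 0.57 (adjusted p = 0.0256 and 0.0341). The cap subunit gene Sem1 measured 5.70, 5.88 and 5.60 in control and 5.89, 5.80 and 5.76 in Celf1cKO libraries. Its values overlapped between the groups (log2 fold-change 0.09, adjusted p = 0.594, limma).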

How the data were processed

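RNA from pooled whole lenses was sequenced paired-end and strand-specifically. The authors trimmed and aligned the reads to GRCm38.p6 with STAR 2.7.8a, counted unique reads per gene with featureCounts 2.0.0, removed genes of very low expression, normalized with edgeR and deposited log2 CPM values per library. The strand setting of the counting is not given in the sources used here. The authors also deposited their own log2 fold-changes, p-values, FDR and an F score per gene from edgeR, which were not used. The steps of the values gave whole reads for 100% of values (within 0.01 read).

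Groups came from the labels. Differences were tested with limma 3.58.1 in R 4.3.3, with a variance trend and Benjamini-Hochberg adjustment over all 13931 genes, and the procedure was tested on simulated data. Nothing says that the pools came from separate litters, so the p-values set each difference against the spread between these samples, moderated across all genes. The labels share replicate numbers without saying what a number stands for, so pairing of same-numbered samples was not established. Deviations of same-numbered samples correlated by 0.26, 0.39 and 0.38 across genes. Counting error of single genes was not used as the error. Positions came from GENCODE M21, on the build of the files, and promoters from RefSeq.

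The members and gene lists were chosen with earlier results of these data known. Genes were named by a rule: called members, the extremes of each group, catalytic subunits, activators, assembly factors and, of the related lists, called genes and the 2 largest differences. Vcp, Ufd1, Nfe2l2, Mafk, Maff, Hmox1, Pdgfrb, Adrm1, Sem1 and Ubqln2 were named after their values were seen. Of the proteasome-bound and shuttle factors, 1 gene is not reported here and was left out of the counts of that list. The all-exon lengths and the normalized library size as a denominator were also chosen after seeing the data. Alternatives were the replicate block, other variance models, scalings and thresholds, limma voom, and each library left out.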

Additional observations from a re-analysis of the deposited data

How the results depend on the processing

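Across 10 other settings and 6 fits that left out a library, the median log2 fold-change of the 46 proteasome genes stayed positive, and its distance to the median of all genes above 1 log2 CPM was 0.24 to 0.34. With the replicate block, 8 members were called and 18 were elevated at an adjusted p under 0.05, and of the other genes looked up it added Hmox1 (elevated, adjusted p = 0.0491) and Pdgfrb (reduced, adjusted p = 0.0462). Over all genes it called 745 elevated and 510 reduced. Without the variance trend, 3 members were called and 3 passed an adjusted p of 0.05, the counts over all genes were 299 elevated and 113 reduced, and the log2 fold-change of Celf1 was -1.60 (adjusted p = 0.0693). Quantile normalization left 4 members called. Total-count scaling gave 18 members called, 36 past the adjusted p, a median of 0.52 and 1651 elevated and 197 reduced genes over the table, against 654 and 356 in the reported fit. It moved the median of the genes above 1 log2 CPM from 0.01 to 0.23, and 0.29 of the members' median lay above that. Without a fold-change threshold 15 were called. Leaving out 1 library at a time, members called elevated numbered 0 to 9 and reduced 0 to 1, those past the adjusted p 0 to 22 and 0 to 1, and genes over all measured ones between 1 and 1025 elevated and 0 to 853 reduced. The extremes came without control library 2 or Celf1cKO library 3 (lowest) and without Celf1cKO library 1 (highest). The log2 fold-change of Celf1 then ran from -1.99 to -1.36 (adjusted p up to 0.108). With another denominator the ratio of summed reads was 1.25 (reads outside crystallins) and 1.27 (normalized library size). No symbol was a pseudogene, so leaving pseudogenes out changed nothing. Depth limits Psmg3 (14 to 29 reads) and Psmb10 (142 to 216 reads) most among the members.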
